A study of Homo sapiens with 4 samples.

Results

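ST6GAL1, the sialyltransferase that caps N-glycans on the sixth carbon of galactose, is described here with 8 related genes, ST3GAL1 to ST3GAL6, ST6GALNAC4 and ST6GALNAC6, in HCT116 cells exposed to the compound HJ-4. These 9 genes were taken by name from a table of 20263 genes, and ST6GAL1 was chosen on its measured rise in this same comparison, so its own values are given as a description with no test. The other 8 genes were listed as relatives of ST6GAL1. All 9 had enough counts to be tested and belong to 14044 genes that were.

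The HJ-4 group consisted of 2 RNA sequencing libraries from HCT116 cells, a human colorectal carcinoma line labelled WT, after 32 µM HJ-4 for 24 h. The DMSO group consisted of 2 libraries from the same line after 0.1% DMSO for 24 h. This dose is that of the labels and methods, and a figure legend of the study gives a lower one for its transcriptome. Both groups thus come from 1 cell line at 1 dose and 1 time, and HJ-4 is the code name of the compound under study. The study's methods describe biological triplicates, while the labels give 2 libraries per group and do not say that these came from separate cultures. The p-values reflect only how far these libraries differ, a spread that may be technical if they did not.

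Sialyltransferases sit in the Golgi, where they move sialic acid from its activated donor, CMP-sialic acid, onto the ends of growing sugar chains. The ST6GAL enzymes attach it to the sixth carbon of a terminal galactose and the ST3GAL enzymes to the third, the ST6GALNAC enzymes add it to N-acetylgalactosamine in O-glycans or to glycolipids, and the ST8SIA enzymes extend sialic acid with more sialic acid. In colorectal carcinoma ST6GAL1 is known as the main source of N-glycan sialic acid linked to the sixth carbon, which is carried by receptors such as FAS, TNFRSF1A, EGFR and the integrin ITGB1.

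The libraries held 33762230 to 34359889 counts in the HJ-4 group and 29769568 to 31120459 counts in the DMSO group. Levels are given within a gene as CPM (counts relative to library size, scaled by the TMM method). Between genes they are given as TPM (counts divided by exon length, relative to their library sum, without TMM scaling). Of the 14044 genes, 637 had DMSO libraries more than 2-fold apart and 540 had HJ-4 libraries that far apart, so several pathway genes below were set by single libraries. The epithelial label was borne out by 6 of 7 markers with at least 10 counts in every library, the exception being VIL1 at 0 to 4 counts, with a marker sum of 4194 to 4386 CPM in HJ-4 and 3981 to 4474 CPM in DMSO. Of 12 markers of fibroblasts, leukocytes, endothelial cells and hepatocytes, COL1A1 and VWF reached that count in every library. In all libraries 4 of them (COL1A2, DCN, LUM and CD3E) were at 0. The sum of the 12 was 59.8 to 62.7 CPM in HJ-4 and 60.5 to 64.0 CPM in DMSO. Nearly all of it was COL1A1, at 58.2 and 60.8 CPM in HJ-4 and 62.6 and 59.4 CPM in DMSO. Mitochondrially encoded genes took 6.01% and 6.41% of counts in HJ-4, against 6.59% and 7.73% in DMSO. The part of either in the results below was not tested.

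The ST6GAL1 gene (ENSG00000073849) lies on the plus strand at chr3:186930325-187078553 of GRCh38, with 24 annotated transcripts. Its single RefSeq promoter window, from 250 bases before to 50 bases after the transcription start at chr3:186930276-186930575 (GRCh38.p14, plus strand), is shown because this is the gene whose level differed most among the sialyltransferases. Capitals mark the octamer ATTTGCAT, the letters bound by POU-domain factors, which begin 45 bases before the start. This RefSeq start and the octamer both lie inside the gene span given above. Which of the 24 transcripts use this start was not examined.
ST6GAL1 promoter: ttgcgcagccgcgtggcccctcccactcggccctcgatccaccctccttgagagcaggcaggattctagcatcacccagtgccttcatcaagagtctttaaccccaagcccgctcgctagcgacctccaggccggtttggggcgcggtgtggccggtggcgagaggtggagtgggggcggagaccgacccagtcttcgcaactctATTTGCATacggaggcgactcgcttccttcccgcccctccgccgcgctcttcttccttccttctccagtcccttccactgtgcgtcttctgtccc
The octamer was in 1.77% of 35116 RefSeq windows of this length, counting both strands. The GC box GGGCGG matched at 2 places in the ST6GAL1 window and occurred in 45% of all windows. The window held no match to CCAAT (in 34.6% of windows), TATAAA (11.5%), the ATF4-CHOP core TGATGNAA (3.62%), the cAMP response element TGACGTCA (1.85%) or the E-box CACGTG (7.26%). Such matches describe letters only. Windows of 6 of the other 8 members were searched, those of ST3GAL1 and ST3GAL2 were not. None of them held the octamer, ST6GALNAC4 held 7 GC boxes, and 2 of the 5 windows of ST3GAL5 held the cAMP response element. It began at -61 and -17 from their starts, and their CCAAT matches, at -81 and -37, were shifted alike. These windows thus appear to overlap and to hold the same site.

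ST6GAL1 measured 21.9 and 22.2 CPM after HJ-4, against 5.89 and 5.95 CPM after DMSO. The raw counts behind these levels were 745 and 742 in HJ-4 and 185 and 179 in DMSO. Each group was therefore nearly flat, with libraries 1.02-fold apart in HJ-4 and 1.01-fold apart in DMSO, and the groups did not overlap. The mean was 22.1 ± 0.26 CPM in HJ-4 and 5.92 ± 0.04 CPM in DMSO (SD, n = 2 each), a ratio of 3.73 and a fitted log2 fold change of 1.90. Even the nearest libraries of the 2 groups were 1.88 apart on the log2 scale. In RNA from a whole culture, fewer cells carrying a transcript and less of it per cell cannot be told apart.

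The ST6GAL1 transcript shared no long stretch with other genes. None of the 4819 stretches of 75 bases in the longest ST6GAL1 transcript occurred in the annotated transcripts of another gene, and no protein-coding or long noncoding gene overlapped the locus. Of the other 8 members, all but ST6GALNAC4 overlap an annotated gene, and no source used here gives the strand setting of the counts, so reads of overlapping genes may be part of their values. The table holds 1 value per gene, so the 24 transcripts of ST6GAL1 were not separated.

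**Figure D1:**
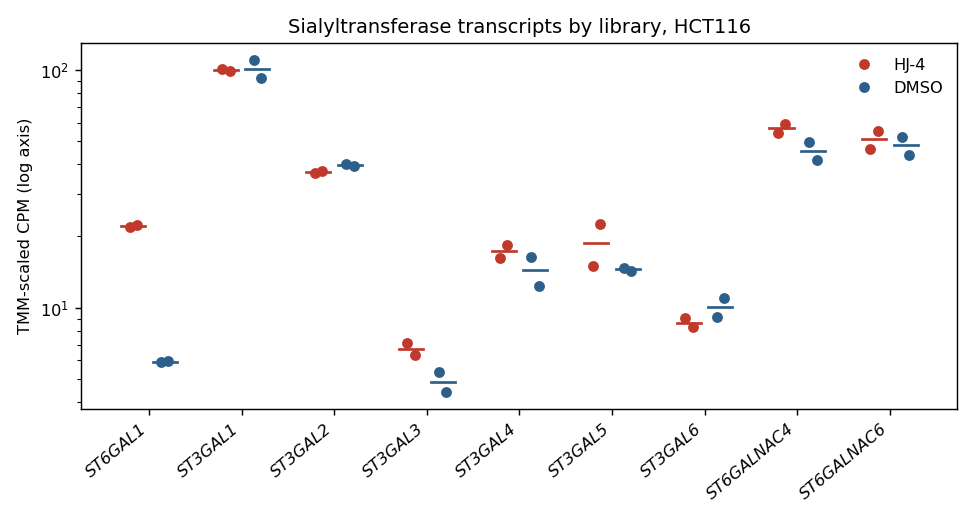
TMM-scaled CPM (log axis) of the 9 sialyltransferase genes in each HCT116 library, HJ-4 left of DMSO within each gene, with 1 point per library and a bar at the group mean (n = 2 each). ST6GAL1 sits at 21.9 and 22.2 CPM in HJ-4, against 5.89 and 5.95 CPM in DMSO, while the groups of the other 8 genes lie close together or overlap.

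None of the other 8 members passed the test at an adjusted p of 0.05 over all genes (edgeR quasi-likelihood test with Benjamini-Hochberg adjustment), in a comparison that called 0.0498% of all genes tested. At an unadjusted p under 0.05, 2 of the 8 were higher in HJ-4 (ST3GAL3 and ST6GALNAC4) and 0 were lower, where 7.93% of all genes were higher and 7.93% lower. For 3 of the 8, each HJ-4 library was above each DMSO library, which held for 25.2% of all genes, and for 2 of the 8 each was below, which held for 25.6%. The 8 log2 fold changes ran between -0.22 and 0.46 with a median of 0.17, beside a median of 0.00 over all genes tested. With 8 genes these shares move in large steps, and nothing particular to the family is read from them.

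The ST3GAL enzymes that act on O-glycans and glycolipids gave intervals that took in 0. ST3GAL1 (chr8:133454848-133571926, minus strand), which caps the core 1 O-glycan known as the T antigen, stood at 100.6 and 98.9 CPM in HJ-4, against 110.0 and 92.1 CPM in DMSO. The DMSO libraries enclosed the HJ-4 libraries, and the log2 fold change was -0.02 with a 95% interval of -0.30 to 0.27 (adjusted p = 0.951, edgeR). ST3GAL2 (chr16:70375977-70439237, minus strand), which sialylates the same O-glycan and gangliosides, had 36.9 and 37.4 CPM in HJ-4, against 40.3 and 39.4 CPM in DMSO. Both HJ-4 libraries were lower by a small amount, with a log2 fold change of -0.10 and an interval of -0.33 to 0.13 (adjusted p = 0.606, edgeR). Of the 75-base stretches of its longest transcript, 5.32% are shared with other genes, most often with the overlapping opposite-strand gene ENSG00000260111. The latter was not counted in the table used here.

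ST3GAL5 (chr2:85837120-85905199, minus strand), which sialylates lactosylceramide and so opens the ganglioside pathway, had 15.0 and 22.4 CPM in HJ-4, against 14.7 and 14.3 CPM in DMSO. The DMSO libraries were close and the HJ-4 libraries were 1.49-fold apart, so the log2 fold change of 0.37 (interval -0.17 to 0.91, adjusted p = 0.446, edgeR) rested on HJ-4 replicate 2. Without that library the log2 fold change was 0.04, and without HJ-4 replicate 1 it was 0.64.

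The remaining ST3GAL enzymes act on N-acetyllactosamine chains, the substrate that ST6GAL1 also uses. ST3GAL3 (chr1:43705824-43931165, plus strand), which works on both chain types including the precursor of sialyl Lewis a, stood at 7.10 and 6.35 CPM in HJ-4, against 5.35 and 4.42 CPM in DMSO. Its groups did not overlap and its log2 fold change of 0.46 was the largest of the 8, with a standard error of 0.17 and an interval of 0.03 to 0.90 (unadjusted p = 0.042, adjusted p = 0.300, edgeR). This rests on 133 to 242 counts per library. Of the 75-base stretches of its longest transcript, 5.47% are shared with other genes, most often with the same-strand gene ENSG00000284989. That gene was not counted in the table used here.

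ST3GAL4 (chr11:126355640-126440344, plus strand), which contributes to selectin ligands, had 16.2 and 18.3 CPM in HJ-4, against 16.4 and 12.3 CPM in DMSO. These groups overlapped, with a log2 fold change of 0.27 and an interval of -0.18 to 0.72 (adjusted p = 0.497, edgeR). ST3GAL6 (chr3:98732236-98821201, plus strand), which acts on the same chains, had 9.04 and 8.27 CPM in HJ-4, against 9.14 and 11.03 CPM in DMSO. Both HJ-4 libraries were below both DMSO libraries, the nearest by a narrow gap, with a log2 fold change of -0.22 and an interval of -0.61 to 0.17 (adjusted p = 0.515, edgeR). ST3GAL6 lies on the same chromosome as ST6GAL1, far from it.

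The ST6GALNAC members are neighbours on chromosome 9. ST6GALNAC4 (chr9:127907886-127917041, minus strand), which adds a further sialic acid to the sialylated T antigen, stood at 54.5 and 59.2 CPM in HJ-4, against 49.6 and 41.8 CPM in DMSO. Its groups did not overlap, and its log2 fold change was 0.31 with an interval of 0.01 to 0.62 (unadjusted p = 0.047, adjusted p = 0.308, edgeR). ST6GALNAC6 (chr9:127885321-127905408, minus strand), which acts on gangliosides and on sialyl Lewis a, had 46.6 and 55.4 CPM in HJ-4, against 52.2 and 43.96 CPM in DMSO. Here the groups overlapped, with a log2 fold change of 0.08 and an interval of -0.28 to 0.44 (adjusted p = 0.798, edgeR). The ST6GALNAC6 value is uncertain, since 94.7% of the 75-base stretches of its longest transcript also occur in transcripts of other genes. The gene sharing most is a readthrough, ENSG00000257524, that was not counted in the table used here.

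**Figure D2:**
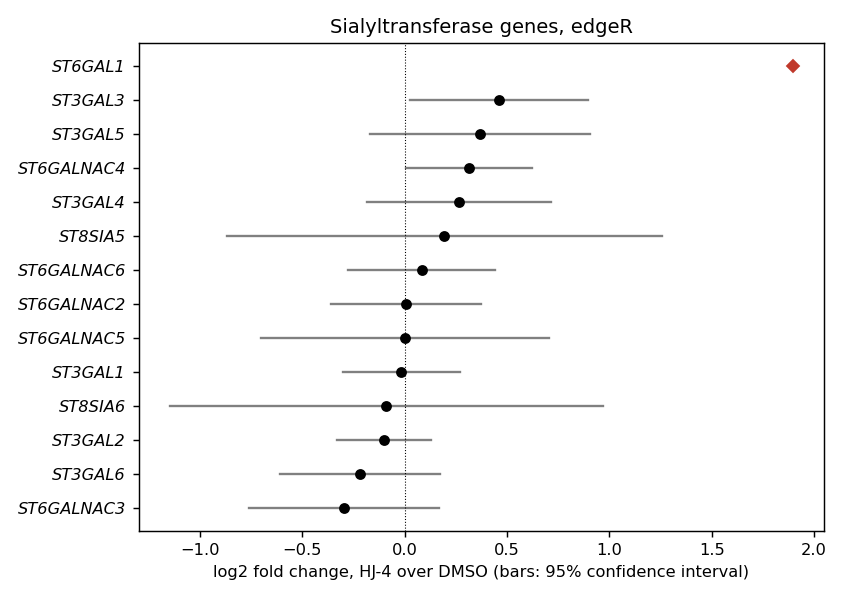
Log2 fold change, HJ-4 over DMSO, of the 14 tested sialyltransferase genes, with 95% confidence intervals from edgeR for all but ST6GAL1, which is drawn as a diamond without an interval because it was chosen on this value. ST6GAL1 lies at 1.90 and the other 13 genes lie between -0.29 and 0.46.

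Of the 20 human sialyltransferase genes, 14 were tested, the 9 above and 5 more. ST6GALNAC2, an O-glycan enzyme, stood at 5.81 and 5.91 CPM in HJ-4, against 6.12 and 5.55 CPM in DMSO, with overlapping groups. ST6GALNAC3, which acts on gangliosides and O-glycans, had 4.90 and 3.87 CPM in HJ-4, against 5.48 and 5.28 CPM in DMSO. It was the lowest of the 13 genes other than ST6GAL1, with a log2 fold change of -0.29 and a standard error of 0.18 (adjusted p = 0.470, edgeR). The ganglioside enzymes ST6GALNAC5 (1.85 and 1.56 CPM in HJ-4, against 1.97 and 1.43 CPM in DMSO) and ST8SIA5 (0.91 and 0.87 CPM in HJ-4, against 1.02 and 0.53 CPM in DMSO) overlapped between groups. So did ST8SIA6, which builds short sialic acid chains on O-glycans, at 0.41 and 0.60 CPM in HJ-4, against 0.48 and 0.60 CPM in DMSO. At the 14 to 32 counts per library of ST8SIA5 and ST8SIA6, a change of moderate size was not detectable at this depth.

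The other 6 sialyltransferase genes fell below the count filter. ST6GAL2, the other enzyme with the linkage of ST6GAL1, had 0 counts in all 4 libraries, as did ST8SIA1, ST8SIA3 and ST8SIA4, and a count of 0 allows up to 3 counts per library. ST6GALNAC1, which makes sialyl-Tn, had 1 and 4 counts in HJ-4 and 0 in both DMSO libraries, and ST8SIA2, a polysialic acid enzyme, had 0 in both HJ-4 libraries, against 2 and 0 counts in DMSO. ST6GAL1 was therefore the ST6GAL enzyme whose transcript was detected in these cells.

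Per length of transcript, ST6GAL1 was among the lower sialyltransferases in DMSO and in the middle in HJ-4. It averaged 6.75 ± 0.03 TPM in HJ-4 and 1.79 ± 0.0026 TPM in DMSO (SD, n = 2 each), which placed it at rank 6 of 14 in HJ-4 and at rank 10 in DMSO. By mean level in HJ-4, ST6GALNAC4 led at 73.7 TPM, followed by ST3GAL1 at 38.8 TPM, ST6GALNAC6 at 32.7 TPM, ST3GAL2 at 13.02 TPM and ST3GAL4 at 9.88 TPM. Those 5 genes stood in the same order in DMSO, with means of 58.5, 38.8, 30.6, 13.8 and 8.13 TPM. In HJ-4, ST6GAL1 stood just above ST6GALNAC2 at 6.66 TPM, with ST3GAL6 at 4.69 TPM and ST3GAL5 at 3.91 TPM after it. In DMSO it stood below these 3 genes, at 6.55, 5.39 and 3.00 TPM, and below ST6GALNAC3 at 2.52 TPM.

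Most neighbours in this order did not overlap between the libraries of a group. Among neighbours in the order, ST3GAL6 and ST3GAL5 overlapped in HJ-4, and ST6GALNAC5 and ST3GAL3 overlapped in DMSO. All other neighbours were separated in both libraries of a group, some by less than the spread between libraries. In DMSO, ST3GAL4 at 9.31 and 6.94 TPM stood just above ST6GALNAC2 at 6.89 and 6.21 TPM. The order and the levels also depend on the exon length used. With the longest transcript in place of the union of exons, ST6GAL1 stood at 11.4 TPM and rank 5 in HJ-4 and at 3.06 TPM and rank 9 in DMSO. The top of the HJ-4 order then ran ST6GALNAC4 at 84.5 TPM, ST6GALNAC6 at 52.8 TPM, ST3GAL1 at 36.4 TPM and ST3GAL4 at 20.2 TPM, with ST3GAL2 at rank 6.

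**Figure D3:**
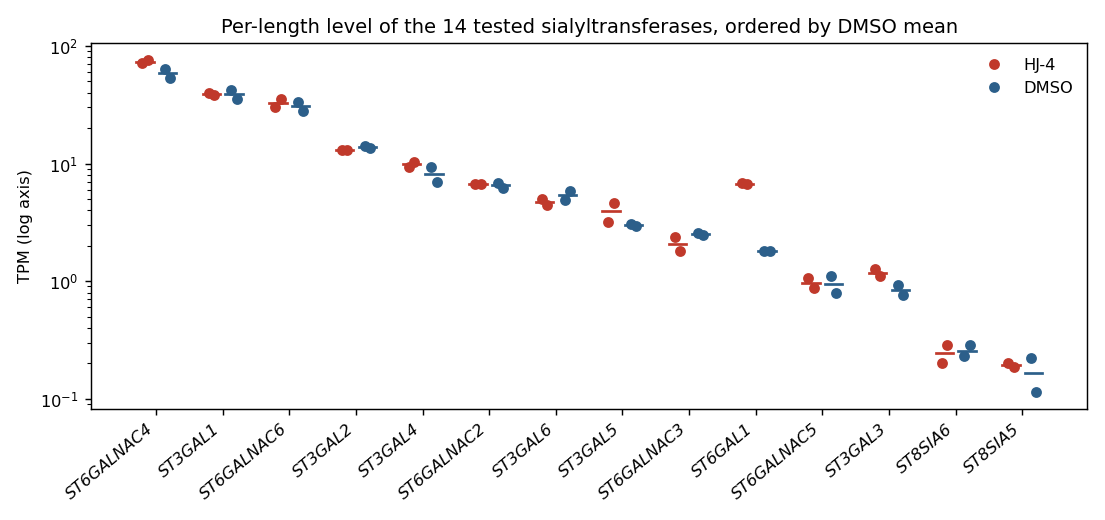
TPM (log axis) of the 14 tested sialyltransferase genes in each library, ordered by the DMSO mean, with HJ-4 left of DMSO within each gene and a bar at each group mean (n = 2 each). ST6GAL1 is at a mean of 6.75 TPM in HJ-4 and 1.79 TPM in DMSO, rank 6 in HJ-4 and rank 10 in DMSO.

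ST6GAL1 made up 3.56% and 3.38% of the summed TPM of all 20 sialyltransferase genes in the HJ-4 libraries, against 0.970% and 1.13% in the DMSO libraries. The mean share was 3.47 ± 0.13% in HJ-4 and 1.05 ± 0.12% in DMSO (SD, n = 2 each), and since it contains ST6GAL1 it carries no test. On CPM, which does not correct for length, the shares were 6.66% in HJ-4 and 1.99% in DMSO. In either group the larger part of the sum came from other sialyltransferases.

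The summed level without ST6GAL1 was 188.0 ± 6.35 TPM in HJ-4 and 169.5 ± 18.5 TPM in DMSO, a gap of about the size of the DMSO spread. The DMSO libraries themselves stood at 182.6 and 156.4 TPM, against 183.5 and 192.5 TPM in HJ-4. The 6 ST3GAL genes together took 37.5% and 35.9% of the summed TPM of all 20 genes in HJ-4, against 40.4% and 41.3% in DMSO. This sum also holds ST6GAL1 and ST6GALNAC4, the latter at a mean of 73.7 TPM in HJ-4 and 58.5 TPM in DMSO. Mean TPM was higher in HJ-4 for ST3GAL3, ST3GAL4 and ST3GAL5 and lower for ST3GAL1, ST3GAL2 and ST3GAL6. A lower ST3GAL level is therefore not read from the lower share.

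The wider pathway was followed with 115 genes that make, use or remove sialic acid or build the chains that carry it, of which 99 were tested. None passed at an adjusted p of 0.05 with edgeR, whereas an unadjusted p under 0.05 was reached by 6 on the higher and 6 on the lower side, each 6.06% of the 99 and near the shares over all genes. Groups were separate with HJ-4 above for 22 of the 99 and below for 26, again near the background. The median log2 fold change of the 99 was -0.0017, with 49 positive and 50 negative values. By DESeq2, 5 of the 99 passed its adjusted p (B3GALT5, GALNT4, FAS, GALNT5 and TNFRSF1A). That test called 574 genes, where edgeR called 7 of all 14044. DESeq2 gave no adjusted p to some of the genes, RENBP among them, so its shares rest on fewer genes than 99 and 14044. Set against these full numbers, the share among the 99 was near that over all genes. Nothing particular to the pathway is read from these 5.

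**Figure D4:**
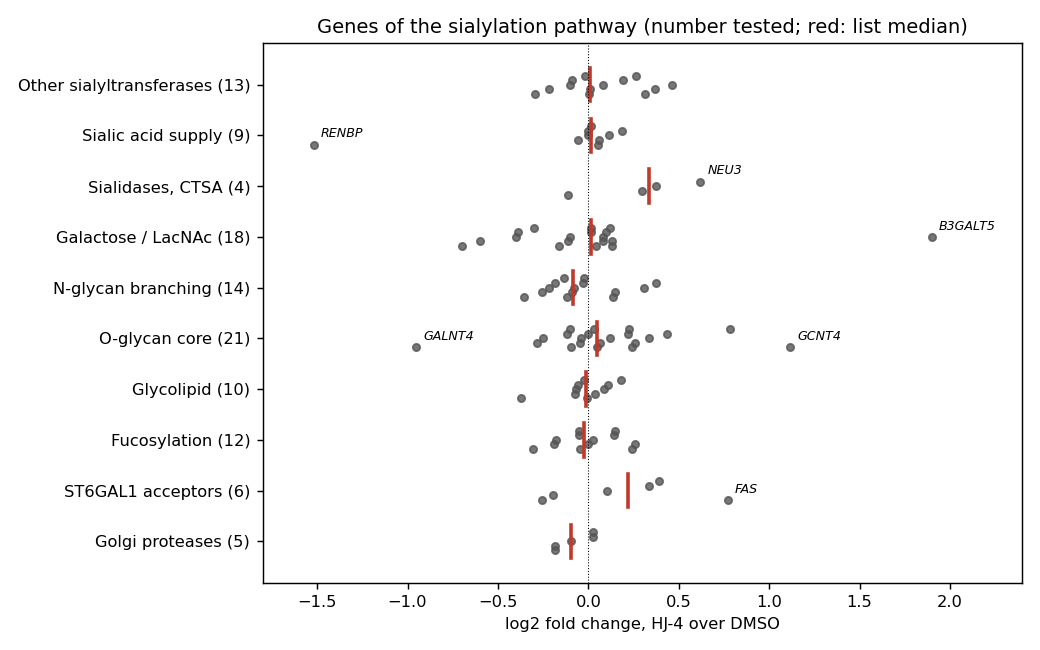
Log2 fold change, HJ-4 over DMSO, of each tested gene in the 9 pathway lists, below the 13 sialyltransferases other than ST6GAL1 in the top row, with the number tested beside each list and a red mark at the list median. Most genes lie near 0, and B3GALT5 stands out at 1.90 and RENBP at -1.52.

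No gene of sialic acid supply passed the test. GNE, the enzyme that starts sialic acid synthesis, stood at 43.3 and 42.5 CPM in HJ-4, against 40.2 and 42.4 CPM in DMSO, with a log2 fold change of 0.06 and an interval of -0.18 to 0.29 (adjusted p = 0.792, edgeR). CMAS, which activates sialic acid as CMP-sialic acid, had 48.9 and 46.8 CPM in HJ-4, against 48.1 and 47.9 CPM in DMSO, with an interval of -0.23 to 0.22. The intervals of these enzymes leave out a change of the size seen for ST6GAL1. SLC35A1, the Golgi carrier of CMP-sialic acid, had 38.4 and 44.03 CPM in HJ-4, against 39.8 and 36.3 CPM in DMSO (log2 fold change 0.12, adjusted p = 0.650, edgeR). SLC17A5, the lysosomal sialic acid exporter, had 77.4 and 71.5 CPM in HJ-4, against 69.7 and 73.5 CPM in DMSO. Of the 10 genes on this list 9 were tested, with a median log2 fold change of 0.01. The gene farthest from 0 was RENBP, a binding protein of renin that also converts N-acylglucosamine, at 0.235 and 0.180 CPM in HJ-4, against 0.605 and 0.598 CPM in DMSO. Its log2 fold change of -1.52 had a standard error of 0.43 and an adjusted p of 0.240 by edgeR, at levels under 1 CPM.

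Sialidases, which remove sialic acid, gave no call either. NEU1, the lysosomal sialidase, stood at 79.2 and 82.7 CPM in HJ-4, against 71.5 and 53.3 CPM in DMSO (log2 fold change 0.38, interval -0.03 to 0.78, adjusted p = 0.331, edgeR). CTSA, which protects NEU1 in the lysosome, had 181 and 188 CPM in HJ-4, against 201 and 197 CPM in DMSO (log2 fold change -0.11, adjusted p = 0.511, edgeR). NEU3, the plasma membrane sialidase that acts on gangliosides, had 37.9 and 42.6 CPM in HJ-4, against 5.51 and 47.0 CPM in DMSO. DMSO replicate 1 thus decided its value. The log2 fold change was 0.62 with a standard error of 0.89, was -0.22 without that library and 2.87 without DMSO replicate 2. Each of these leaves 1 DMSO library, so the spread then comes from the HJ-4 libraries, and no call is read from them.

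Among the galactosyltransferases and chain-extending enzymes that build the acceptor of ST6GAL1, B3GALT5 was the gene that stood apart. B3GALT5 (ENSG00000183778, chr21:39556442-39673137, plus strand) makes type 1 chains, the backbone of sialyl Lewis a, whereas ST6GAL1 prefers type 2 chains. It had 10.1 and 7.64 CPM in HJ-4, against 2.39 and 2.36 CPM in DMSO, with groups that did not overlap. Its log2 fold change was 1.90 with a standard error of 0.20 and an interval of 1.39 to 2.41, and an adjusted p of 0.0794 by edgeR. It passed at 1.56e-07 by DESeq2, at 0.0469 by edgeR with robust fitting and at 0.0343 with the replicate number as a block. It did not pass under the other 10 alternatives, with adjusted p of 0.0716 to 0.291, the highest being 0.291 without HJ-4 replicate 1 and 0.216 without HJ-4 replicate 2. The log2 fold change was 1.70 and 2.07 without these libraries, and 0.98 on the log2(TPM + 1) scale, which understates low levels. An antisense gene, B3GALT5-AS1, and a same-strand gene, ENSG00000225330, overlap the locus, and the counts come with no stated strand setting.

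B4GALT1, the main enzyme that makes the type 2 galactose to which ST6GAL1 adds sialic acid, stood at 107 and 99.8 CPM in HJ-4, against 103 and 97.9 CPM in DMSO (log2 fold change 0.04, interval -0.18 to 0.26, adjusted p = 0.840, edgeR). The chain-extending enzymes B3GNT4 and B3GNT2 lay lower in both HJ-4 libraries, B3GNT4 at 9.98 and 10.1 CPM in HJ-4, against 13.2 and 13.1 CPM in DMSO. B3GNT2 had 39.0 and 35.1 CPM in HJ-4, against 48.2 and 43.0 CPM in DMSO. Neither passed (log2 fold change -0.39 and adjusted p = 0.240 for B3GNT4, -0.30 and 0.306 for B3GNT2, edgeR). B3GNT5, which starts lacto-series glycolipids and is named here after its values were seen, had 61.1 and 24.1 CPM in HJ-4, against 69.1 and 69.3 CPM in DMSO, so both HJ-4 libraries were lower, replicate 2 by far more (log2 fold change -0.70, adjusted p = 0.468, edgeR). Over the 18 tested genes of this list the median was 0.02.

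Genes that shape N-glycans, the usual carriers of ST6GAL1 products, gave 14 tested genes with a median log2 fold change of -0.08 and no call. MGAT2, which is needed for complex chains, had 30.7 and 26.6 CPM in HJ-4, against 35.9 and 37.4 CPM in DMSO (log2 fold change -0.36, adjusted p = 0.260, edgeR). FUT8, the core fucosyltransferase, had 49.5 and 45.4 CPM in HJ-4, against 32.4 and 40.9 CPM in DMSO (log2 fold change 0.37, adjusted p = 0.310, edgeR). SLC35A3, the Golgi carrier of UDP-N-acetylglucosamine, had 32.5 and 39.7 CPM in HJ-4, against 31.7 and 26.7 CPM in DMSO (log2 fold change 0.31, adjusted p = 0.388, edgeR). In each of these 3 the groups did not overlap, by margins narrower than the gap seen for ST6GAL1. Of the 14 genes, 3 had both HJ-4 libraries above both DMSO libraries and 4 had both below. Over all genes tested these shares were 25.2% and 25.6%, so nothing particular to the list is read from this. MGAT5, the branching enzyme that creates favoured sites for long chains, split by replicate number in both groups, with 84.3 and 26.6 CPM in HJ-4, against 94.8 and 37.6 CPM in DMSO. B4GALT3, named after its values were seen, showed the same split with 82.1 and 52.6 CPM in HJ-4, against 86.4 and 47.0 CPM in DMSO.

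O-glycan genes gave 21 tested genes with a median of 0.05. GALNT4, which continues O-glycosylation of peptides already carrying sugar, had 3.96 and 5.04 CPM in HJ-4, against 8.76 and 8.64 CPM in DMSO. Its log2 fold change was -0.95 with a standard error of 0.17 (adjusted p = 0.149, edgeR, and 0.0127, DESeq2), and its transcripts overlap POC1B and a POC1B-GALNT4 readthrough, so its counts are uncertain. GALNT5, an initiating enzyme, had 43.2 and 44.7 CPM in HJ-4, against 31.5 and 33.5 CPM in DMSO (log2 fold change 0.44, adjusted p = 0.183, edgeR, and 0.0211, DESeq2). GCNT3, the mucin branching enzyme, had 3.38 and 2.61 CPM in HJ-4, against 1.85 and 1.63 CPM in DMSO (log2 fold change 0.78, adjusted p = 0.247, edgeR). GALNT4 lay lower in HJ-4 and the other 2 higher, and none of the 3 passed by edgeR.

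Glycolipid genes (10 tested, median -0.02) and fucosyltransferases with their donor supply (12 tested, median -0.02) were close to the median of all genes. B4GALNT1, which extends gangliosides downstream of ST3GAL5, had 22.9 and 24.4 CPM in HJ-4, against 33.3 and 27.8 CPM in DMSO (log2 fold change -0.37, adjusted p = 0.276, edgeR). PSAP, the precursor of the saposins, gave 0.18 on the log2 scale (adjusted p = 0.335, edgeR) and GLB1, the lysosomal galactosidase, of 0.09 (adjusted p = 0.738, edgeR). For the fucosyltransferases FUT1, FUT10 and FUT11 the log2 fold changes were 0.26, 0.24 and -0.31, with adjusted p of 0.397, 0.430 and 0.433 by edgeR.

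The glycoproteins described as carriers of ST6GAL1-made sialic acid gave 6 tested genes, 4 positive and 2 negative, with a median of 0.22. FAS, the death receptor, had 16.5 and 14.7 CPM in HJ-4, against 10.0 and 8.27 CPM in DMSO, and its groups did not overlap. Its log2 fold change was 0.77 with a standard error of 0.15 (adjusted p = 0.165, edgeR, and 0.0128, DESeq2). The FAS locus overlaps STAMBPL1 on the same strand and ACTA2 and ENSG00000286116 on the opposite strand, whose reads may be part of its counts. TNFRSF1A, a tumour necrosis factor receptor, had 159 and 170 CPM in HJ-4, against 135 and 126 CPM in DMSO (log2 fold change 0.34, adjusted p = 0.219, edgeR, and 0.0424, DESeq2). These receptors were the 2 genes of the list with an unadjusted p under 0.05, higher in HJ-4, and none of the list was lower at that level, where 7.93% of all genes were higher and 7.93% lower. With 6 genes such shares move in large steps, and nothing particular to the carriers is read from them. ITGB1 had 850 and 892 CPM in HJ-4, against 566 and 761 CPM in DMSO (log2 fold change 0.39, adjusted p = 0.316, edgeR), with DMSO libraries further apart than HJ-4 libraries. EGFR lay on the lower side, with 230 and 238 CPM in HJ-4, against 260 and 276 CPM in DMSO (log2 fold change -0.19, adjusted p = 0.323, edgeR).

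**Figure D5:**
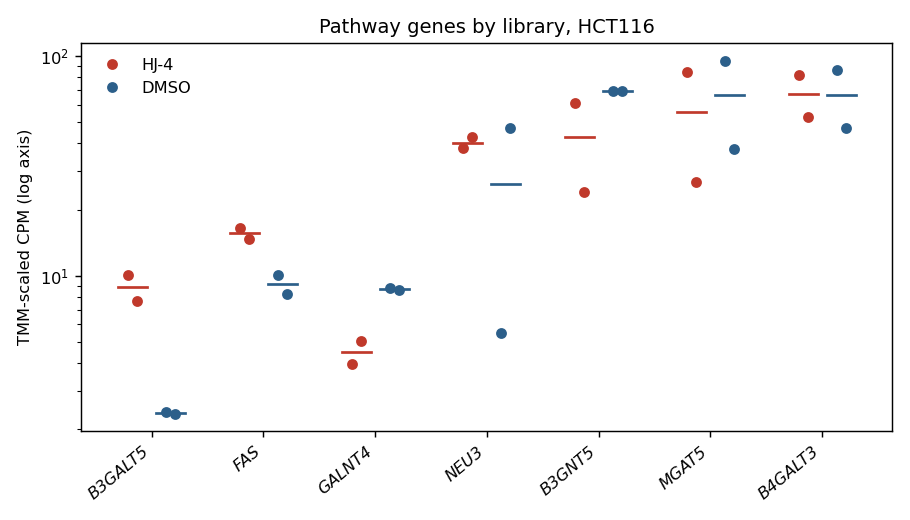
TMM-scaled CPM (log axis) of named pathway genes in each library, HJ-4 left of DMSO within each gene, with 1 point per library and a bar at the group mean (n = 2 each). B3GALT5 stands at 10.1 and 7.64 CPM in HJ-4, against 2.39 and 2.36 CPM in DMSO. The libraries lie far apart within DMSO for NEU3 and within both groups for MGAT5.

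Proteases that cut glycosyltransferases out of the Golgi gave 5 tested genes with a median of -0.10 and no call. BACE1, which releases ST6GAL1, had 31.9 and 33.5 CPM in HJ-4, against 22.4 and 41.8 CPM in DMSO, a wide DMSO spread around a log2 fold change of 0.03 (interval -0.74 to 0.79, adjusted p = 0.976, edgeR). SPPL3, which sheds many glycosyltransferases, had 52.8 and 46.7 CPM in HJ-4, against 53.0 and 53.4 CPM in DMSO (log2 fold change -0.10, adjusted p = 0.663, edgeR). For SPPL2B and BACE2 the log2 fold changes were -0.18 and -0.18, with adjusted p of 0.441 and 0.469 by edgeR.

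The 5 genes with the pattern most like ST6GAL1 were found by the smallest Euclidean distance between log2 CPM centred on each gene's mean over the 4 libraries, among the 12872 genes that averaged 1 CPM or more. They were KBTBD11-OT1 at a distance of 0.237, TMEM250 at 0.244, SPRY1 at 0.248, BBC3 at 0.281 and B3GALT5 at 0.298. With 2 libraries in each group such a likeness is mainly a difference between the groups of like size. SPRY1, an inhibitor of receptor tyrosine kinase signalling, had 11.4 and 9.89 CPM in HJ-4, against 3.28 and 3.16 CPM in DMSO. BBC3, the pro-apoptotic gene also called PUMA, averaged 92.7 ± 2.57 CPM in HJ-4 and 21.3 ± 2.14 CPM in DMSO (SD, n = 2 each). TMEM250 averaged 34.7 ± 1.35 CPM in HJ-4 and 7.92 ± 0.25 CPM in DMSO, and KBTBD11-OT1 averaged 32.8 ± 1.68 CPM in HJ-4 and 8.61 ± 1.41 CPM in DMSO. B3GALT5 was the gene of the sialylation lists among the 5.

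No tested gene beside ST6GAL1 on chromosome 3 had a difference near the size of its own. EIF4A2, a translation initiation helicase that ends 140427 bases before ST6GAL1, had 418 and 394 CPM in HJ-4, against 358 and 346 CPM in DMSO (log2 fold change 0.21, adjusted p = 0.304, edgeR). RFC4, a subunit of the clamp loader of DNA replication that ends 123266 bases before it, had 24.1 and 20.1 CPM in HJ-4, against 20.1 and 25.3 CPM in DMSO, with overlapping groups. ADIPOQ, the nearest gene of the table before ST6GAL1 at 71861 bases, and RPL39L, the nearest after it at 42394 bases, had 0 counts in all 4 libraries. RTP1 and MASP1, farther after it, had at most 12 counts in any library and were not tested.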

How the data were processed

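The 9 genes, the gene lists and the tests were chosen with earlier results of these data known. The values are raw counts of reads per gene, deposited without normalization in 1 table with a column for each of 4 libraries. The study's methods name FastQC, Trimmomatic, STAR, GRCh38 and featureCounts, while the submitters' processing notes list HISAT2, bedtools and RSEM beside the first pair. These sources thus name different aligners and counters for the table, and its annotation and strand setting are not given in the sources used here. Such choices move counts of overlapping genes. The methods describe biological triplicates, and 2 libraries per group were analysed here.

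Symbols, coordinates and exon lengths came from GENCODE version 44 (20148 of 20263 IDs matched). Counts were filtered with filterByExpr, scaled by TMM and fitted on condition alone by the quasi-likelihood method (glmQLFit, glmQLFTest) of edgeR 4.0.16 in R 4.3.3. P-values were adjusted by Benjamini-Hochberg over all 14044 genes tested at 0.05. The common biological coefficient of variation was 0.157. No exact permutation test of 2 against 2 libraries can give a two-sided p below 0.333. TPM used the union of exons. Counting floors of 3 cover counting error only. Sampling noise was exceeded within each group (chi-square over its degrees of freedom 21.9 in HJ-4 and 36.5 in DMSO). Promoter windows came from RefSeq (GRCh38.p14). Scripts were tested on simulated data.

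Named were all members, the remaining tested sialyltransferases, per list the 3 genes with the smallest unadjusted p and fixed genes, the 5 genes most like ST6GAL1 and the 3 nearest genes on each side. Alternatives were DESeq2 1.42.0, limma 3.58.1 with voom or on log2(TPM + 1), robust edgeR fitting, other size factors and filters, each library left out and a replicate block.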

Additional observations from a re-analysis of the deposited data

How the results depend on the processing

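The log2 fold change of ST6GAL1 was 1.90 and stayed positive under every alternative run. It was 1.87 with total counts in place of TMM, 1.47 with limma on log2(TPM + 1), which shrinks low levels by its construction, and 1.87 to 1.92 with each library left out. The count of other sialyltransferases called was 0 under every alternative run. Those at an unadjusted p under 0.05 numbered 2, against 0 with total counts, 1 with DESeq2, 1 with limma on log2(TPM + 1), 1 with the replicate block and 0 to 3 with a library left out. The mean ST6GAL1 share was 6.66% in HJ-4 and 1.99% in DMSO on CPM, 4.69% in HJ-4 and 1.45% in DMSO with the longest transcript, and 3.66% in HJ-4 over the 9 members alone.

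The count of genes called over all genes, 7, was 12 with no filter, 574 with DESeq2, 13 with limma on log2(TPM + 1), 46 with robust fitting, 31 with the replicate block and 0 to 88 with a library left out. It was 0 without either HJ-4 replicate, 88 without DMSO replicate 1 and 34 without DMSO replicate 2. Pathway genes called, 0 by edgeR, were 5 with DESeq2, 1 with robust fitting, 1 with the replicate block and 0 to 1 with a library left out. Those at an unadjusted p under 0.05, 12 in all, were 7 to 21 with a library left out. With a library left out, the lone library of its group is assumed to vary like the other group. The cause of these shifts was not tested.

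Replicate numbers did not pair the libraries (correlation of deviations from the group means -0.04), so the block was not used, and with it B3GALT5 had an adjusted p of 0.0343 by edgeR, the named pathway gene whose call it changed.

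Among the named genes, signs turned for those that follow under the alternatives run. With total counts the log2 fold change was -0.0276 for ST6GALNAC5, -0.0226 for ST6GALNAC2 and -0.0032 for BACE1, and with limma on log2(TPM + 1) it was 0.0049 for ST3GAL1 and 0.0135 for CMAS. With a library left out it ranged from -0.14 to 0.12 for ST3GAL1, -0.0588 to 0.22 for ST6GALNAC6, -0.40 to 0.17 for ST8SIA6, -0.21 to 0.25 for ST6GALNAC5, -0.20 to 0.74 for ST8SIA5, -0.0629 to 0.0784 for ST6GALNAC2, -0.22 to 2.87 for NEU3, -0.0188 to 0.20 for GLB1, -0.0235 to 0.0144 for CMAS, -1.30 to 0.56 for MGAT5, -0.36 to 0.55 for BACE1 and -0.19 to 0.14 for RFC4. A sialyltransferase under 1 CPM, such as ST8SIA5 or ST8SIA6, is limited by its 14 to 32 counts per library.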
